A study of Mus musculus with 6 samples.

Results

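The genes described here are 40 named members of mitochondrial and peroxisomal fatty acid oxidation: the carnitine shuttle, the mitochondrial and the peroxisomal enzymes, acyl-CoA thioesterases, and a few genes of fatty acid uptake, ketone body formation and pantetheine breakdown. Members were found as the probe sets whose only gene symbol in the array annotation was a listed gene, which gave 61 probe sets for 39 of the 40 genes, among 12393 genes with such a probe set on the array. Acsl1 had no probe set of that kind and was left out. Fatty acids are broken down in the liver by beta-oxidation, a cycle of dehydrogenation, hydration, a further dehydrogenation and thiolytic cleavage that shortens an acyl-CoA by an acetyl unit at each turn. Mitochondria take up long-chain acyl groups through the carnitine shuttle and pass the electrons to the respiratory chain, whereas peroxisomes shorten very long, branched and dicarboxylic acyl chains and hand the products over as carnitine esters or free acids. Many of these genes are known targets of the nuclear receptor PPAR alpha, which pairs with RXR and binds direct repeats of the letters AGGTCA.

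Transcripts were measured in the liver of DUhTP mice, a non-inbred line bred for high treadmill performance without training in running wheels, and of mice of the unselected control line DUC, with 3 Affymetrix mouse genome arrays per line. The mice were male and 70 days old, and no treatment is described for either line. Both lines go back to 1 founder cross, of outbred stocks (CF1, CFW, Han:NMRI and NMRI orig.) with the inbred lines AB/Bln, C57BL/Bln, CBA/Bln and XVII/Bln. Each line is a single breeding population, so an effect of selection and one of drift cannot be told apart; the study describes each array as a pool, whereas the labels describe a mouse, and p-values measure only the spread between these arrays. The values are PLIER intensities, linear and in arbitrary units, and they were compared on the log2 scale with limma's moderated test, with p adjusted by the Benjamini-Hochberg method over 22626 probe sets. A probe set was called at an adjusted p under 0.05. A fold change (FC) below 0 means lower abundance in DUhTP mice, n was 3 arrays per line throughout, and the brightest probe set stands for a gene unless another is named. With 3 arrays against 3 an exact permutation test of a single gene cannot give a p below 0.1.

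The tissue was checked by its markers. Of 11 hepatocyte markers 10 were measured. Their summed intensity was 102280 to 102440 in DUhTP arrays and 108340 to 114120 in DUC arrays, and 1 of them, the amino acid enzyme Tat, fell. The array medians ranged from 53.1 to 57. Markers of other cells differed between the lines: the summed intensity of 11 exocrine pancreas markers was 1050 to 4406 in DUhTP and 5139 to 10097 in DUC arrays (0 of 11 called, and 7 lower and 0 higher when 16 was added to every intensity before the log), and that of 13 Kupffer cell and leukocyte markers was 4563 to 5680 in DUhTP and 3196 to 4236 in DUC arrays, with the Kupffer cell lectin Clec4f called higher (with 16 added 6 higher and 1 lower). Endothelial sums were 3057 to 3343 in DUhTP and 2752 to 2899 in DUC arrays, stellate cell sums 1276 to 1372 in DUhTP and 1018 to 1046 in DUC arrays, and erythroid sums 1283 to 1657 in DUhTP and 761 to 846 in DUC arrays, with Col3a1 and Alas2 called higher. Cholangiocyte sums (114 to 151 in DUhTP, 127 to 136 in DUC arrays) and skeletal muscle sums (169.5 to 199.5 in DUhTP, 179 to 198 in DUC arrays) overlapped, although the muscle gene Mb fell. The adipocyte sum, 10683 to 11280 in DUhTP and 5328 to 6679 in DUC arrays, was almost wholly Car3, which rose and which hepatocytes express too, while Adipoq, the defining fat cell gene, read 2.59 to 11.7 in DUhTP and 2.03 to 4.96 in DUC arrays. Of the 5 measured adipocyte markers 2 were below 0 and 3 above, and with 16 added 1 was called lower and 1 higher. With 16 added 2 hepatocyte markers were called lower and 0 higher. The same fit called 1 endothelial and 2 stellate cell markers higher and 0 lower. The ratio of 3′ to 5′ control probe sets for pyruvate carboxylase, a sign of RNA integrity, was 5.48, 5.44 and 11.3 in DUhTP replicates 1, 2 and 3 and 5.42, 6.55 and 7.73 in the DUC replicates. For Actb it was 1.52, 1.60 and 1.82 in the DUhTP and 1.73, 1.735 and 2.27 in the DUC replicates. For Gapdh it was highest on DUC replicate 3, at 0.968, and 0.907 on DUhTP replicate 3. In bulk tissue fewer cells of a type and less RNA per cell cannot be told apart.

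Cpt1a, the gate enzyme of the carnitine shuttle, fell in DUhTP mice, and so did the dehydrogenase Acad11, the peroxisomal enzyme Ehhadh, the acetyltransferase Crat and the thioesterase Acot1, each by an FC between -1.68 and -1.89. Of 39 measured members 5 fell and 0 rose. Over all genes 1.40% had a probe set called lower and 1.92% one called higher. By probe sets, 8 of 61 were called, all lower, where 2.41% of all probe sets were called, 1.05% lower and 1.36% higher. Only 2 of the 8 passed an FC over 2 as well, 1 each of Cpt1a and Acad11, against 1.45% of all probe sets. The median log2 fold change of the 39 members was -0.19, and that of all genes was 0.0011. For 27 members the brightest probe set was below 0 and for 12 it was above.

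These calls depended on the number of arrays. When any 1 of the 6 arrays was left out, 0 of the 8 member probe sets stayed past the threshold (adjusted p 0.0553 to 0.171 in limma). In these refits 17 to 26 member probe sets had an unadjusted p under 0.05, against 25 with all 6 arrays. The share of all probe sets at that level was not counted there. With all 6 arrays 15 of 39 members and 2698 of 12393 genes were at that level by the brightest probe set. Adding 16 to every intensity before the log, which damps the noise of dim probe sets, gave 13 called member probe sets, 12 lower and 1 higher, where 8.62% of all probe sets were called, 4.70% lower and 3.92% higher. These were 9 genes lower and 1 higher, where 6% of all genes were called lower and 5.31% higher. With 16 added, all 8 of the probe sets kept their call without any 1 array (adjusted p 0.00159 to 0.0376 in limma). The genes that passed only with 16 added were Vnn1, Etfdh, Acot3 and Scp2, which fell there, and Hadh, which rose there. Vnn1 kept that call in all 6 refits without 1 array (adjusted p 0.00311 to 0.0244 in limma). Etfdh, Acot3, Scp2 and Hadh each kept it in only 1 of the 6.

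**Figure D1:**
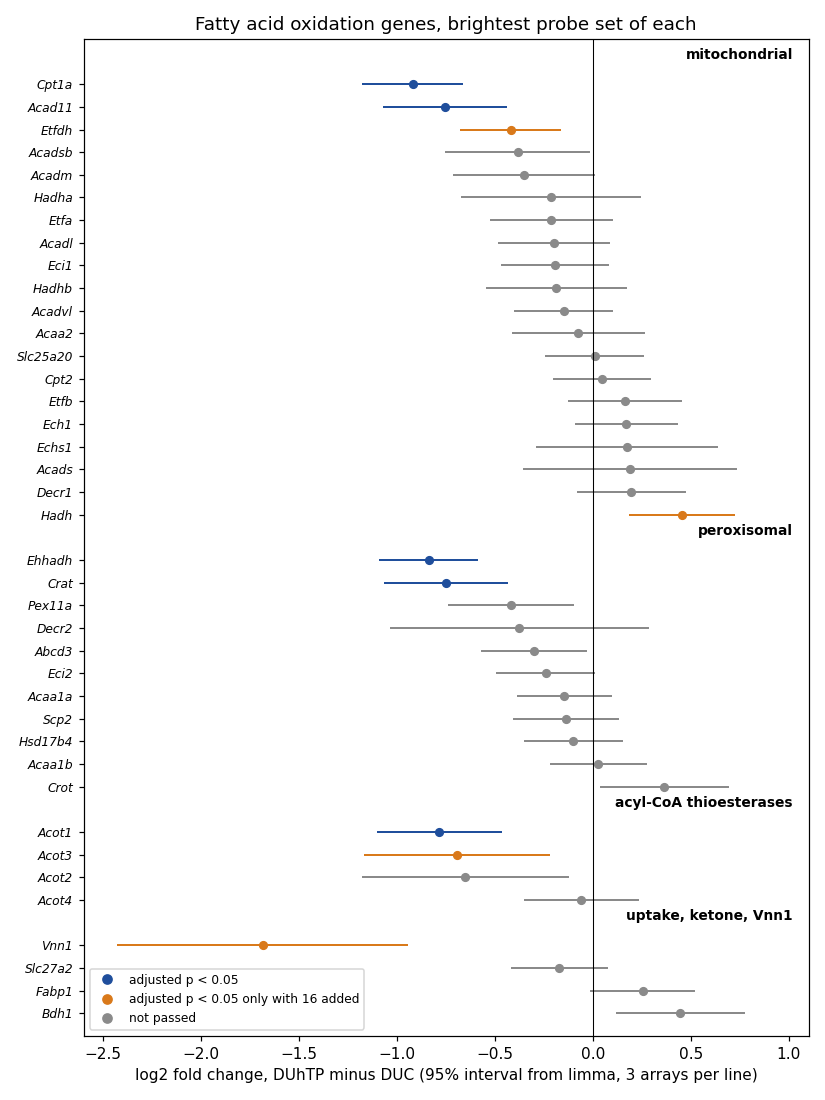
Log2 fold change (DUhTP minus DUC, x axis) of the brightest probe set of each of the 39 measured members, one row per gene in 4 classes, with bars for the 95% interval from limma over 3 arrays per line. Blue points passed an adjusted p under 0.05 and orange points passed it only with 16 added; Cpt1a, Acad11, Ehhadh, Crat and Acot1 are blue and all lie below 0.

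Of the regulatory sequence of these genes only the stretch just before the start site was examined here. It is shown because several of the members that fell are known PPAR alpha targets. The 250 bases before the start of transcription were taken from RefSeq on GRCm38.p6, where 34 of the 39 measured members had an entry, Crat and Vnn1 not among them. Each was searched on both strands for the direct repeat of AGGTCA with a spacer of 1 base of any kind, which PPAR alpha and RXR bind, and the closest window is in capitals below. Fabp1, at chr6:71199629-71199878 on the plus strand, had 1 mismatch, on the minus strand, 67 to 55 bases before the start. The other sequences are those of the called members with an entry: Cpt1a at chr19:3323051-3323300 (plus strand, 4 mismatches), Acad11 at chr9:104063474-104063723 (plus strand, 5), Ehhadh at chr16:21787835-21788084 (minus strand, 4) and Acot1 at chr12:84009252-84009501 (plus strand, 4).
Fabp1: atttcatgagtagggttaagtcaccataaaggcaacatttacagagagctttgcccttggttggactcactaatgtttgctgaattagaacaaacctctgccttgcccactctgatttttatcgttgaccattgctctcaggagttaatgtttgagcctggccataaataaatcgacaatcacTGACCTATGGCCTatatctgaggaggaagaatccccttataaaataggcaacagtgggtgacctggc
Cpt1a: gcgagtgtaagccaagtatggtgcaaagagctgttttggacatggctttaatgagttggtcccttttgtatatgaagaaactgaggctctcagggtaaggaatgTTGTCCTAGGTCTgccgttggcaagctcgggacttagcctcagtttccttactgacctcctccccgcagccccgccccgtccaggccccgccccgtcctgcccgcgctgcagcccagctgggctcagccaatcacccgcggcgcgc
Acad11: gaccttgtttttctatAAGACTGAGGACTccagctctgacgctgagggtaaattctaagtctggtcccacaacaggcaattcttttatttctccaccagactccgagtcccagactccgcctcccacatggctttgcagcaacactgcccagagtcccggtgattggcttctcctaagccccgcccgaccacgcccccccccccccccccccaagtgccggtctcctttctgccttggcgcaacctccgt
Ehhadh: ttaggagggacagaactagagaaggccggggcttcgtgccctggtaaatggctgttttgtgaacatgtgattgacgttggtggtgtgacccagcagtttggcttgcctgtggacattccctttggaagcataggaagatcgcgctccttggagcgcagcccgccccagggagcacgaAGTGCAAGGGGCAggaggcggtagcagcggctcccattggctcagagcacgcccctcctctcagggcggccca
Acot1: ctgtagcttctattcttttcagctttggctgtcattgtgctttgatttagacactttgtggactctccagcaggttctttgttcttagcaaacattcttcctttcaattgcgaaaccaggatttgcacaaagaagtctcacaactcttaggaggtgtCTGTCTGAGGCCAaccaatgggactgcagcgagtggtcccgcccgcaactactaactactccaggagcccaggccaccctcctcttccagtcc
A window with at most 1 mismatch was found in 1 of the 34 members, Fabp1, and in 0.566% of all 27025 genes with an entry. At most 2 mismatches were found in 4 of the 34 (Fabp1, Acot4, Echs1 and Etfa) and in 3.72% of all genes. None of these 4 was called. For Acot4 the window was TGACCTTTGGCCG, 13 to 1 bases before its start, for Echs1 AGGTCACGGGTCC and for Etfa TTACCTTTGCCCT. Up to 4 mismatches were found in 77.0% of all genes, so the closest windows of Cpt1a, Ehhadh and Acot1 are no closer than most. A match is a likeness of letters only, and sequence farther from the start was not examined.

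Cpt1a makes the liver form of the outer membrane carnitine palmitoyltransferase, which is inhibited by malonyl-CoA and sets the rate of fatty acid entry. Its brightest probe set 1460409_at read 1295, 1297 and 1349.5 (replicates 1 to 3) in DUhTP mice, against 2633, 2465 and 2368 in DUC mice. The lines did not overlap, and every DUhTP array was near the others. The FC was -1.89 (log2 fold change -0.92, SE 0.10, adjusted p = 0.0210). The other 2 probe sets had an FC of -1.88 (1438156_x_at, adjusted p = 0.0210) and -2.08 (1434866_x_at, adjusted p = 0.0209), so all 3 fell. The shuttle also needs Slc25a20, the carnitine-acylcarnitine carrier of the inner membrane, and Cpt2, which restores the acyl-CoA inside. Slc25a20 read 2126, 1959.6 and 1973 in DUhTP mice, against 1965, 1990.2 and 2067 in DUC mice, and its arrays overlapped. Its log2 fold change was 0.01 with a 95% interval of -0.24 to 0.26 (adjusted p = 0.975). For Cpt2, at a mean ± SD of 1354 ± 37.6 in DUhTP and 1312 ± 55.2 in DUC arrays, the log2 fold change was 0.05 with an interval of -0.20 to 0.29, and its dim probe set 1447820_x_at had one of 0.32 (adjusted p = 0.239). The interval of Cpt1a, -1.17 to -0.67, lay wholly below those of the other shuttle genes; the difference between the genes was not tested.

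Acyl-CoA dehydrogenases catalyse the first step inside mitochondria, each for a range of chain lengths. Acad11, a member of the family with a preference for long chains that has been placed in peroxisomes as well, fell. On 1454647_at it read 2095, 1697 and 2100.0 in DUhTP mice, against 3362, 3237 and 3302 in DUC mice, an FC of -1.69 (log2 fold change -0.76, SE 0.13, adjusted p = 0.0475). On 1433545_s_at, which can match several transcripts, the DUhTP arrays read 1459, 1217 and 1335 and the DUC arrays 2667, 2673 and 2664.5, an FC of -2.0 (adjusted p = 0.0210). The lines were apart on both probe sets and the DUC arrays were close together on each. The 5 other dehydrogenases did not pass. Their log2 fold changes were -0.15 for Acadvl (very long chains), -0.20 for Acadl (long chains), -0.35 for Acadm (medium chains), -0.38 for Acadsb (short branched chains, as in isoleucine breakdown) and 0.19 for Acads (short chains), with adjusted p between 0.218 and 0.677. The 3 DUhTP arrays were all below the 3 DUC arrays for Acadvl, Acadl, Acadm and Acadsb too. Among all genes 16% were below and 15.6% above in this way by the brightest probe set. Acads read 901, 954 and 569 in DUhTP arrays and 677, 744 and 656 in DUC arrays, lowest on replicate 3 of either line. Replicate 3 also had the highest 3′ to 5′ ratio for pyruvate carboxylase in either line, and a link was not tested.

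The hydratase, dehydrogenase and thiolase steps of the mitochondrial cycle did not pass in limma without an added constant. Hadha and Hadhb, the subunits of the trifunctional protein that handles long chains, had log2 fold changes of -0.22 (1142 ± 217 in DUhTP, 1314 ± 141 in DUC mice) and -0.19 (3199 ± 315 in DUhTP, 3647 ± 450 in DUC mice), and their arrays overlapped. Echs1, the short-chain hydratase, had one of 0.17 with overlap as well. Hadh, the dehydrogenase of medium and short hydroxyacyl-CoAs, went the other way from Cpt1a: 1455972_x_at read 6958, 6937 and 7901 in DUhTP mice, against 5397, 5323 and 5167 in DUC mice. All its 3 probe sets were without overlap and had an FC of 1.37, 1.31 and 1.31. The adjusted p was 0.0941, 0.146 and 0.158, and for the brightest of them 0.0323 with 16 added, which was lost again without any 1 array other than DUhTP replicate 2. Acaa2, the mitochondrial thiolase, gave different readings by probe set. The log2 fold change was 0.42 on 1428145_at and 0.40 on 1455061_a_at, but -0.07 on the brightest, 1428146_s_at (adjusted p = 0.127, 0.245 and 0.801).

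Unsaturated fatty acids need auxiliary enzymes, and the dehydrogenases need an acceptor of electrons. Decr1, the mitochondrial dienoyl-CoA reductase, Ech1, a dienoyl-CoA isomerase found in both organelles, and Eci1, the mitochondrial enoyl-CoA isomerase, had log2 fold changes of 0.20, 0.17 and -0.20, and none passed. Ech1, the brightest of them, read 4447, 4281 and 4531 in DUhTP mice, against 3908, 4181 and 3710.4 in DUC mice, without overlap (SE 0.10, adjusted p = 0.411). The electron transfer flavoprotein subunits Etfa and Etfb had values of -0.21 and 0.16. Etfdh, which hands the electrons of the flavoprotein to ubiquinone, read 1849.6, 1745 and 1957 in DUhTP mice, against 2472, 2492 and 2458 in DUC mice. The lines did not overlap, and the FC was -1.34 (log2 fold change -0.42, SE 0.10, adjusted p = 0.0974 and 0.0382 with 16 added). In all, 2 of the 20 genes classed as mitochondrial fell, Acad11 among them, and 0 rose. Over all genes 1.40% were called lower and 1.92% higher. The median log2 fold change of the mitochondrial genes was -0.17.

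**Figure D2:**
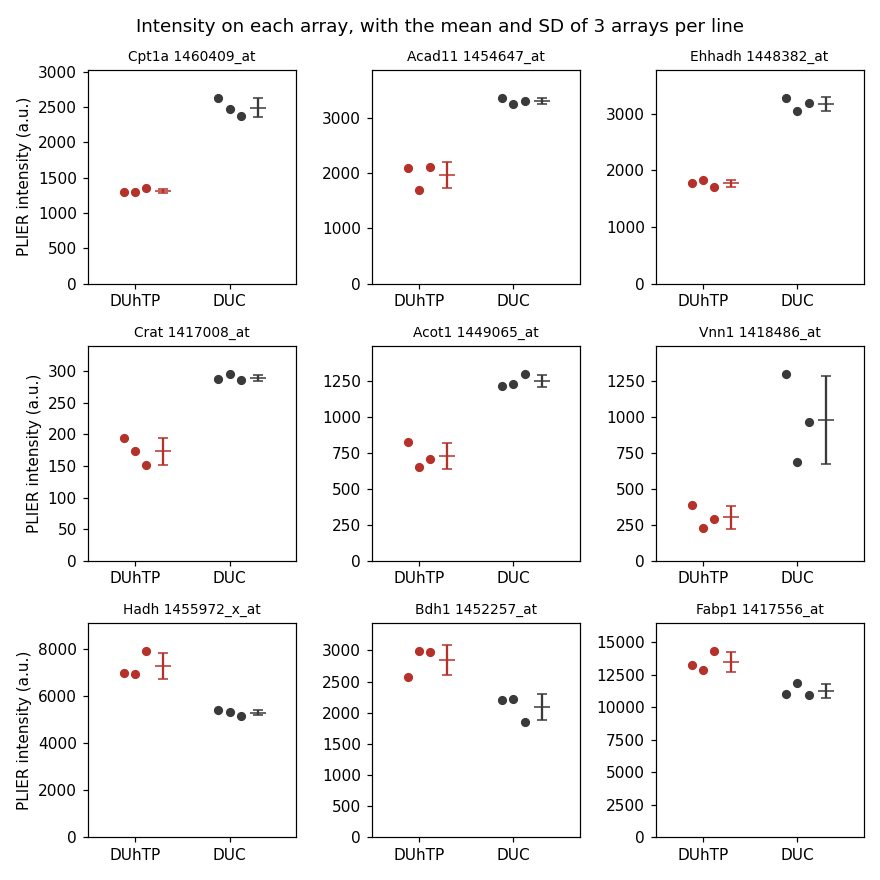
PLIER intensity (y axis, arbitrary units, from 0) of 9 members on each of the 3 DUhTP (red, left) and 3 DUC arrays (black, right), with the mean and SD of each line beside the points. Cpt1a, Acad11, Ehhadh, Crat and Acot1 are lower on all 3 DUhTP arrays, Vnn1 spans 684 to 1296 within the DUC line, and Hadh, Bdh1 and Fabp1 are higher on all 3 DUhTP arrays without passing the test.

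In peroxisomes the clearest difference was that of Ehhadh, the bifunctional enzyme of hydration and dehydrogenation and an inducible enzyme of rodent liver. It read 1778, 1823 and 1711 in DUhTP mice, against 3281, 3041 and 3187 in DUC mice. The arrays of each line lay close together, and the FC was -1.79 (log2 fold change -0.84, SE 0.10, adjusted p = 0.0238). Hsd17b4, the constitutive counterpart with the opposite stereospecificity, read 2731 ± 53.2 in DUhTP and 2929.5 ± 147 in DUC mice (SD), with a log2 fold change of -0.10 and an interval of -0.35 to 0.15. Its second probe set, 1455777_x_at, had one of -0.28 (-0.52 to -0.04, adjusted p = 0.188). Both intervals lay above that of Ehhadh, -1.09 to -0.59, and the difference between the genes was not tested.

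The peroxisomal thiolases did not pass. Acaa1a had a log2 fold change of -0.15 (interval -0.38 to 0.09), and Acaa1b, the form that peroxisome proliferators induce in rodents, one of 0.03 (-0.22 to 0.27) at the high intensity of 9662 ± 117 in DUhTP and 9485 ± 402 in DUC mice. Scp2, whose longer product is the thiolase of branched chains and whose shorter one carries sterols, had 4 probe sets. The brightest, 1426219_at, had a log2 fold change of -0.14, and 1419975_at had one of 0.52 with wide scatter in both lines (685 to 1383 in DUhTP, 434 to 830.2 in DUC arrays). The dimmer 1419974_at read 488, 392 and 374 in DUhTP mice, against 627, 561 and 618 in DUC mice, without overlap (log2 fold change -0.53, SE 0.14, adjusted p = 0.116, and 0.0361 with 16 added). Decr2 and Eci2, which deal with double bonds of unsaturated chains in peroxisomes, had -0.38 and -0.24. Decr2 was lowest on replicate 3 of either line, at 1171, 1143 and 669 in DUhTP and 1432, 1337 and 1021 in DUC mice.

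Of the carnitine acyltransferases, which export shortened chains, Crat fell. Crat, the acetyltransferase of peroxisomes and mitochondria, read 194, 173 and 152 in DUhTP mice, against 288, 295 and 287 in DUC mice. Its FC was -1.68 (log2 fold change -0.75, SE 0.13, adjusted p = 0.0481), and its second probe set near background level, 1448544_at, was -0.40 on the log2 scale (adjusted p = 0.431). Crot, the octanoyltransferase of peroxisomes, read 3395, 3186 and 3341 in DUhTP mice, against 2937, 2263 and 2549 in DUC mice, a log2 fold change of 0.36 without overlap (adjusted p = 0.196). Of the membrane genes, Abcd3, a transporter of acyl-CoAs into peroxisomes, differed by -0.30 on the log2 scale (adjusted p = 0.195), and Pex11a, a factor of peroxisome division, had -0.42 and -0.47 on its probe sets (adjusted p = 0.152 and 0.182). On all 3 of these probe sets the DUhTP arrays were below the DUC arrays, as in 16% of all genes by the brightest probe set. Of the 11 peroxisomal genes 2 fell and 0 rose, where 1.40% of all genes were called lower and 1.92% higher. The median log2 fold change of the peroxisomal genes was -0.24. The mitochondrial and the peroxisomal class thus had 2 called genes each, of 20 and of 11 genes, and the difference between the classes was not tested. These counts depend on the classing of Acad11 as mitochondrial and of Crat as peroxisomal, although each has been placed in both organelles.

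Acyl-CoA thioesterases cleave acyl-CoA to the free acid and CoA. Acot1 of the cytosol, Acot2 of mitochondria and Acot3 and Acot4 of peroxisomes are close paralogs that neighbour each other on mouse chromosome 12, so cross-hybridization between them is possible. Acot1 fell, with 824, 648 and 706 in DUhTP mice, against 1215, 1227 and 1294 in DUC mice (FC -1.72, log2 fold change -0.78, SE 0.13, adjusted p = 0.0448). Acot3, on a probe set that can match several transcripts, read 129, 84.8 and 105 in DUhTP mice, against 195, 155 and 161 in DUC mice (FC -1.62, adjusted p = 0.124 and 0.0351 with 16 added). Acot2 was dimmer, at 88.9, 67.7 and 51.5 in DUhTP mice, against 111, 108 and 99.8 in DUC mice (FC -1.57, adjusted p = 0.166). In each of the 3 genes the DUhTP arrays were all below the DUC arrays, as in 16% of all genes by the brightest probe set. A probe set that names both Acot1 and Acot2, 1422997_s_at, read 667, 565 and 560.4 in DUhTP mice, against 1119.8, 1033 and 855 in DUC mice (FC -1.67, adjusted p = 0.0676). The brightest Acot4 probe set read 94.2 ± 6.06 in DUhTP and 98.2 ± 7.64 in DUC mice, with a log2 fold change of -0.06 (interval -0.35 to 0.23). Its dimmer probe set, 1422076_at, read 74.6, 74.9 and 65.4 in DUhTP mice, against 93.6, 91.9 and 79.8 in DUC mice, without overlap (log2 fold change -0.30, adjusted p = 0.238). The median of the 4 genes by the brightest probe set was -0.67.

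Vnn1 had the lowest log2 fold change of all members and the largest standard error among their brightest probe sets. It encodes the pantetheinase that yields pantothenate, the precursor of CoA, and cysteamine. It read 386, 227 and 292 in DUhTP mice, against 1296, 684 and 962 in DUC mice, without overlap, although the DUC arrays differed widely. The FC was -3.22 (log2 fold change -1.69, SE 0.30, adjusted p = 0.0536, and 0.00306 with 16 added). Bdh1, which interconverts acetoacetate and hydroxybutyrate in mitochondria and was the only member of ketone body metabolism, was higher on all DUhTP arrays, at 2569, 2987 and 2981 in DUhTP mice, against 2211, 2218 and 1846 in DUC mice (FC 1.36, adjusted p = 0.142; 0.0552 with 16 added). Its second probe set had an FC of 1.23. Of 8 genes listed for ketone body formation and transport 5 were measured, Bdh1 among them, and 0 passed in limma. With 16 added 1 fell and 0 rose, where 6% of all genes were called lower and 5.31% higher. By the brightest probe set 2 of the 5 were below 0 and 3 above. Their summed intensity was 6966 to 7177 in DUhTP and 5964 to 6618 in DUC arrays.

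Neither of the 2 measured members of fatty acid uptake and binding passed, with or without 16 added. Slc27a2, an acyl-CoA synthetase of very long chains in peroxisomes and the endoplasmic reticulum, read 8459 ± 235 in DUhTP and 9525 ± 230.3 in DUC mice. Its arrays did not overlap between the lines, and the log2 fold change was -0.17 (adjusted p = 0.374). Fabp1, the abundant fatty acid binding protein of hepatocytes with the closest promoter match above, read 13200, 12830 and 14286 in DUhTP mice, against 10976, 11884 and 10924 in DUC mice. The lines did not overlap there, with a log2 fold change of 0.25 (interval -0.01 to 0.52, adjusted p = 0.249), and its second probe set had one of 0.04 with overlap. Over all members, the 3 DUhTP arrays were below the 3 DUC arrays on the brightest probe set of 20 genes and above them in 6. Among all genes 16% were below and 15.6% above in this way. For 16 of the 39 the 95% interval lay wholly within 0.5 of 0 on the log2 scale.

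**Figure D3:**
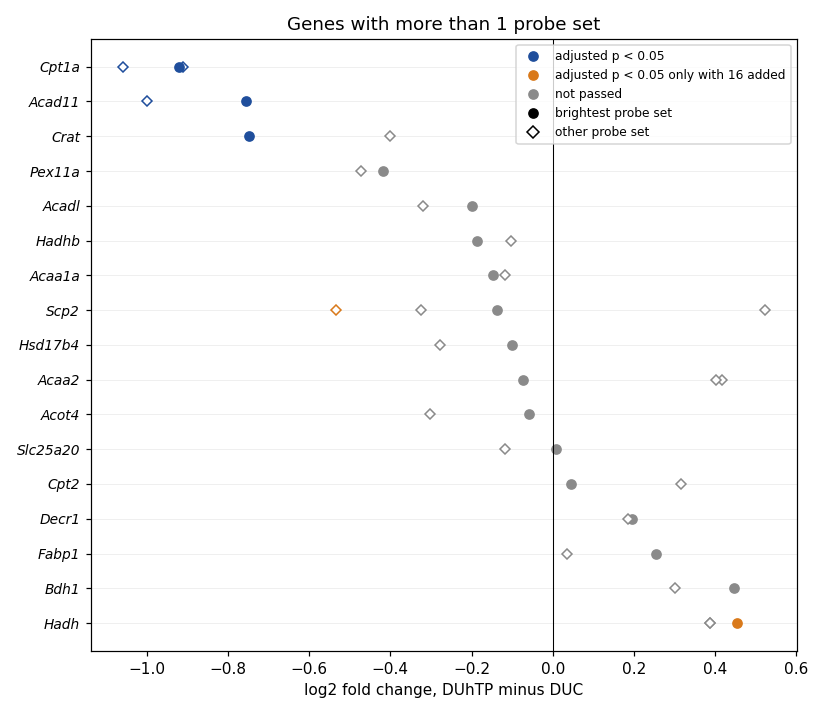
Log2 fold change (DUhTP minus DUC, x axis) of every probe set of the 17 members with more than 1, one row per gene, filled circles for the brightest probe set and open diamonds for the others, in the colours of the passed test. All 3 Cpt1a and both Acad11 probe sets passed below 0, while Scp2, Acaa2 and Slc25a20 had probe sets on both sides of 0.

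Of the 17 members with several probe sets, 14 had all of them on the same side of 0 and 3 did not (Slc25a20, Acaa2 and Scp2). The values of the called genes were also set beside the markers that differed between lines. In DUhTP replicates 1, 2 and 3 the pancreas sum was 4406, 1050.4 and 2807, while Cpt1a read 1295, 1297 and 1349.5 and Ehhadh 1778, 1823 and 1711. In DUC replicates 1, 2 and 3 the pancreas sum was 5139, 10097 and 7602. On them Cpt1a read 2633, 2465 and 2368 and Ehhadh 3281, 3041 and 3187. Acad11, Acot1 and Vnn1 (the last called only with 16 added) were lowest on DUhTP replicate 2. That array had the lowest pancreas and the highest Kupffer cell sum (5680). It also had the lowest array median (53.1) and, in the fit with weights per array, the lowest weight (0.558). In the DUC line Acad11 and Vnn1 were lowest on replicate 2 too, and Acot1 on replicate 1. There DUC replicate 2 had the highest pancreas sum and the lowest Kupffer cell sum (3196), the reverse of DUhTP replicate 2. Crat was lowest on DUhTP replicate 3. The part of these cells in the results of these genes was not tested.

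Other genes of the pathway, from lists of textbook members, were counted in the same fit. A list of further fatty acid oxidation genes, not all of them enzymes of the cycle, had 18 measured. Of these 1 fell and 2 rose, where 1.40% of all genes were called lower and 1.92% higher. With 16 added 2 fell and 4 rose, where 6% of all genes were called lower and 5.31% higher. Their summed intensity was 34339 to 36384 in DUhTP and 30628 to 32165 in DUC arrays. Abcd2, a peroxisomal transporter of very long acyl-CoAs that is dim in liver, read 5.86, 7.93 and 6.73 in DUhTP mice, against 54.9, 34.6 and 35.3 in DUC mice (log2 fold change -2.58, adjusted p = 0.0122). Nudt7, a CoA hydrolase of peroxisomes, rose with an FC of 1.65 (adjusted p = 0.0316), and Pecr, the peroxisomal enoyl-CoA reductase of chain elongation, with an FC of 1.71 (adjusted p = 0.0443). The paper counts Pecr among lipogenic enzymes. None of these called genes is an enzyme of the oxidation cycle. Of 10 further thioesterases 1 fell, Acot12, an acetyl-CoA hydrolase of the cytosol (FC -1.78, adjusted p = 0.0356). None of 12 further acyl-CoA synthetases and none of 15 genes of peroxisome biogenesis passed in limma. With 16 added 1 synthetase fell and 3 rose, and 1 biogenesis gene fell and 1 rose.

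Genes of PPAR alpha signalling outside the members included larger differences than any member. Of 17 measured genes of PPAR alpha and its partners 2 fell and 0 rose: the coactivators Ppargc1a, which was dim (19.3 in DUhTP and 43.5 in DUC mice on average, adjusted p = 0.0499), and Ppargc1b (FC -2.36, adjusted p = 0.0263). Lpin1, a phosphatidate phosphatase and coactivator, read 95.3, 455 and 316 in DUhTP mice, against 1619, 2357 and 2243 in DUC mice (log2 fold change -3.10, adjusted p = 0.0599). Ppara itself read 1514, 1358 and 1295 in DUhTP mice, against 1564, 1782 and 1539 in DUC mice (log2 fold change -0.23, adjusted p = 0.346). Of 22 further listed targets 3 fell and 1 rose. Those that fell were Cyp4a14, an omega-hydroxylase of fatty acids at 935 ± 151 in DUhTP and 5961 ± 584 in DUC mice (FC -6.41, adjusted p = 0.00708), its relative Cyp4a31, which was close to the bottom of the scale in DUhTP mice (4.76 ± 2.75, against 31.3 ± 1.24 in DUC mice, adjusted p = 0.0303), and the lipid droplet protein Plin5 (FC -2.16, adjusted p = 0.0282). Tmem19 rose (FC 2.03, adjusted p = 0.0221). With 16 added 6 partners were called lower and 0 higher, and 7 further targets lower and 1 higher, where 6% of all genes were called lower and 5.31% higher (1.40% and 1.92% without it). Targets such as Plin2 (log2 fold change 0.11) and Angptl4 (-0.27) did not pass. The median log2 fold change was -0.23 for the partners and -0.14 for the further targets. Cyp4a14 kept its call in 5 of the 6 fits without 1 array (adjusted p up to 0.0565, without DUC replicate 2) and Abcd2 in 3. The other called genes of these lists kept it in at most 1.

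**Figure D4:**
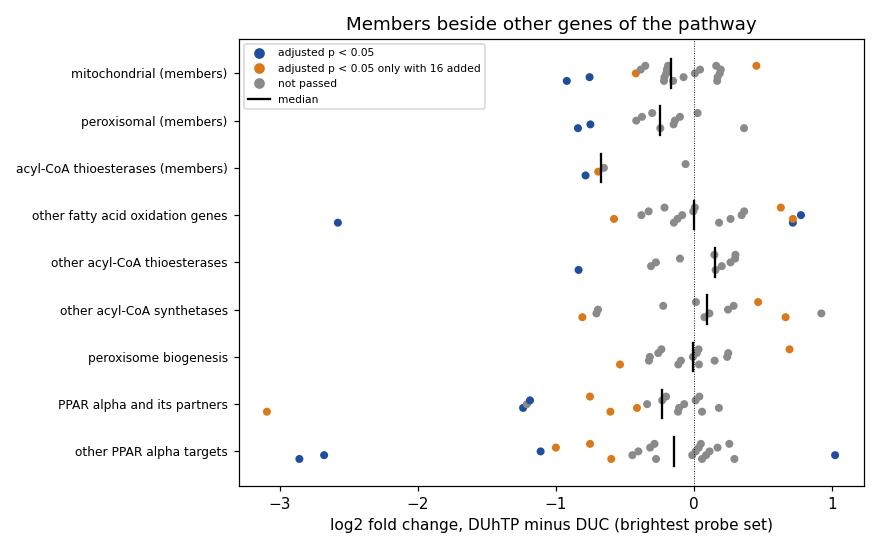
Log2 fold change (DUhTP minus DUC, x axis) of the brightest probe set of each gene in 3 classes of members and 6 lists of other pathway genes (rows, with points offset for visibility), with a black bar for the median of each row. Blue marks genes past the threshold and orange those past it only with 16 added; the medians of the members run from -0.17 for mitochondrial genes to -0.67 for thioesterases.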

How the data were processed

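Liver RNA of 3 DUhTP and 3 DUC samples was hybridized to 1 Affymetrix mouse array each. The deposited values are intensities on a linear scale, which the authors made from the scans with the PLIER algorithm after global scaling; the submitters' processing notes name GCOS 1.1.1. Any constant added before deposit is not given in the sources used here, and the lowest intensity was 0.101. The depth of an array is not counted, so the number of arrays limits the precision. Of 22690 probe sets 64 controls were left out. Probe sets were named from the platform's annotation, in which 20380 had 1 gene symbol, 691 several and 1555 none. Log2 intensities were compared with limma 3.58.1 in R 4.3.3 (lmFit and eBayes), with Benjamini-Hochberg adjustment over 22626 probe sets. The procedure was also run on simulated arrays with known changes, where only the median estimate had to lie near the known change. The share of those changes that was called is not given here. The members and lists were chosen with earlier results of these data known. Members were given in full where a probe set passed with or without 16 added, or where a role had none, for its brightest member. Of the other lists the genes that passed were named, and others named there were chosen after their values were seen. Alternatives were a constant of 16, quantile normalization, a filter on dim probe sets, limma-trend, weights per array, the replicate number as a block, exclusion of the less specific probe sets (_s_, _x_ and _a_), and leaving out each array.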

Additional observations from a re-analysis of the deposited data

How the results depend on the processing

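The 5 called member genes and 8 probe sets were the same genes with quantile normalization and with array weights. With 16 added 13 member probe sets (10 genes) and 1951 of all probe sets were called, with a filter on dim probe sets 13 (10 genes) and 1851, and with limma-trend 22 (17 genes, 5 of them higher: Acaa2, Bdh1, Crot, Fabp1 and Hadh) and 2350. With the _s_, _x_ and _a_ probe sets excluded 2 member probe sets (2 genes, Cpt1a and Ehhadh) and 277 of all were called. Without 1 array each, 0 to 0 member probe sets and 0 to 0 member genes were called, and 1 to 122 of all 22626 probe sets (546 with all 6 arrays), lowest without DUC replicate 2. With 16 added, a set of refits chosen after seeing the data, 6 to 9 member genes and 771 to 1591 of all probe sets were called without 1 array. With the replicate block 0 member probe sets, 0 member genes and 0 of all probe sets passed in limma (lowest adjusted p 0.0771), while 4124 of all and 21 of the members had an unadjusted p under 0.05. For arrays with the same number the correlation of their deviations over all probe sets was 0.00341, 0.0048 and 0.0667. Replicate 3 had the highest 3′ to 5′ ratio for pyruvate carboxylase in either line (11.3 in DUhTP and 7.73 in DUC mice). Whether arrays of the same number were handled together is not known. Log2 fold changes near 0 changed sign without 1 array on Fabp1 1448764_a_at (-0.023 to 0.0898), Slc25a20 1423108_at (-0.0294 to 0.0294), Acaa2 1428146_s_at (-0.17 to 0.0034) and the dim Acadl 1448988_at (-1.35 to 0.59). The cause of these shifts was not tested.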
